A study of Mus musculus with 15 samples.

Results

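miR-124 and miR-9 are miRNAs closely tied to neuronal identity. They were taken from the deposited table by name, as every arm called miR-124, miR-124a or miR-9, which gave 4 of the 396 listed miRNAs: mmu-miR-124-3p, mmu-miR-124-5p, mmu-miR-9-5p and mmu-miR-9-3p. The rule uses names alone. Small RNA of dissected midbrain was sequenced from C57BL/6 mice at 6 months of age. The tested genotype was labelled A30P alpha-synuclein +/+ (7 libraries, replicates 1, 2, 3, 4, 6, 7 and 8) and the comparison genotype was wild type (WT, 8 libraries, replicates 1 to 8). A30P is a form of the presynaptic protein alpha-synuclein linked to familial Parkinson's disease. The labels give no promoter, copy number or cell type for the A30P allele, and nothing in them says that separate animals were used. The p-values therefore reflect variation among these libraries, some of which may be technical.

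Both miRNAs are processed from several hairpins that are transcribed mainly in the nervous system. miR-124 accumulates as neurons mature and represses transcripts of other lineages, among them Ptbp1, a splicing repressor. miR-9-5p acts in neural progenitors and neurons and targets the progenitor factors Hes1 and Nr2e1. miR-9-3p comes from the opposite arm of the same hairpin and was reported to target the corepressor CoREST. The neuronal gene silencer REST represses genes of both miRNAs in non-neuronal cells. Since midbrain was measured in bulk, fewer neurons and less miRNA per neuron cannot be told apart.

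The mature miR-9 arms are shown because their base composition and their shared hairpins return in the results. They were taken from RefSeq (GRCm38.p6, not the mm9 build of the submitters' processing notes), which held 347 of the 396 listed names. The RefSeq sequences used held neither miR-124 arm, so seed and GC content were not examined for miR-124. Sequences run 5′ to 3′, with the seed (bases 2 to 8) in capitals.
miR-9-5p: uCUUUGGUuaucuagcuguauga
miR-9-3p: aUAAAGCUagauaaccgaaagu
No other mouse miRNA in RefSeq had either seed, so neither arm had a seed relative among the 347 listed names held there. The other listed names were not checked. In the 3 hairpins below, capitals mark both mature arms.
Mir9-1: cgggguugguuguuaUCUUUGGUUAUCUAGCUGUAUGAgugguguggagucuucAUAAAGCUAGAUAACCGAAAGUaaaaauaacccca
Mir9-2: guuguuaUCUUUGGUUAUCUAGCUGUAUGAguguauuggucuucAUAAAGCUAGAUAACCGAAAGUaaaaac
Mir9-3: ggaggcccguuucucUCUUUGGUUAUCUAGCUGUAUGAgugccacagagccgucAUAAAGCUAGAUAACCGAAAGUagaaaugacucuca
The arms are identical in all 3 hairpins and only loops and flanks differ, so reads cannot be assigned to a hairpin.

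In GRCm38, Mir9-1 lies at chr3:88215598-88215686 in an intron of the long noncoding RNA Gm3764. Mir9-2 lies at chr13:83738814-83738885 and overlaps an exon of C130071C03Rik. Mir9-3 lies at chr7:79505264-79505353 in an intron of Mir9-3hg. For miR-124 the GENCODE vM21 annotation names 3 hairpins. Mir124a-1 lies at chr14:64590657-64590741 over an exon of Mir124a-1hg, Mir124a-2 at chr3:17795662-17795770 over an exon of Mir124-2hg, and Mir124a-3 at chr2:180894040-180894107 with no annotated host on its strand. All 6 hairpins are on the plus strand.

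The A30P libraries were shallow. They held 21731 to 3500431 reads of listed miRNAs (median 92827), against 724813 to 9762286 in WT libraries (median 5081436.5). A30P replicates 1, 2, 4 and 7 were under 100000 reads. The deepest A30P library was replicate 6, and the shallowest WT libraries were replicates 1 and 8. miR-148a-3p and miR-151-3p together took 13.9% to 80.1% of listed reads in A30P libraries and 0.842% to 2.51% in WT libraries. The column names carry one letter tag in A30P and another in WT. If that tag marks a run, run and genotype cannot be told apart.

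The means of all 4 arms were lower in A30P midbrain on the deposited scale, in which reads are divided by a size factor per library (normalized counts). By limma on log2(value + 1), with Benjamini-Hochberg adjustment over all 396 miRNAs, 4 of 4 fell at adjusted p 0.05. The same test called 79.3% of all listed miRNAs, 71% lower and 8.33% higher, so a fall was the common outcome. The median log2 fold change was -3.93 over the 4 arms and -2.57 over all miRNAs. When edgeR's quasi-likelihood test with TMM scaling was run on the whole reads recovered from the table, 2 of 4 fell, miR-124-3p and miR-9-3p, against 35.5% of the 318 miRNAs tested. That test called 55% of them in either direction and 19.5% higher. The authors' deposited table called 1 of 4 lower at adjusted p 0.05, miR-124-3p, against 34.1% of all listed miRNAs lower, 9.85% higher and 43.9% in either direction.

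**Figure D1:**
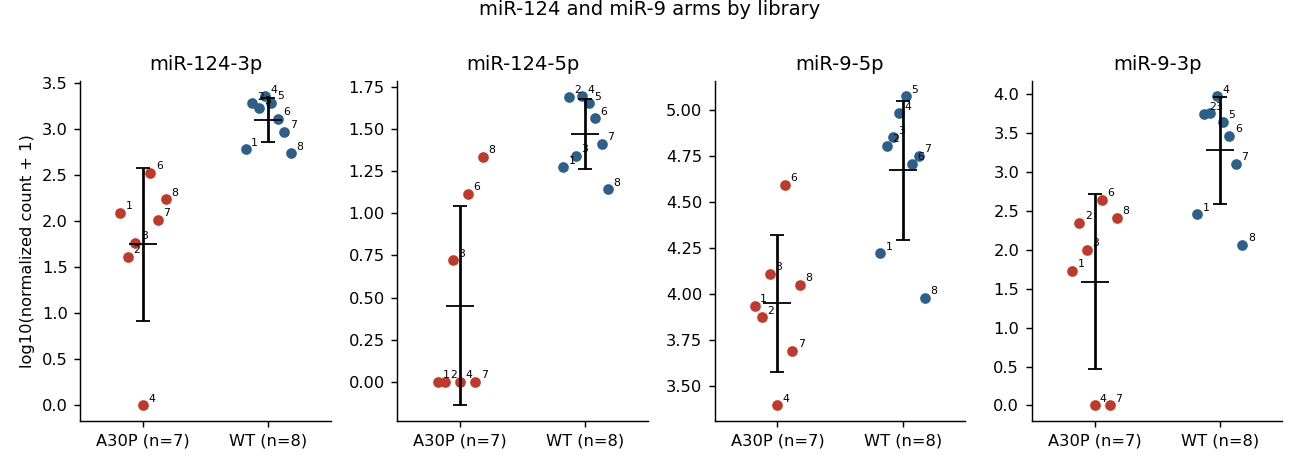
Normalized counts of each arm in every library, as log10(value + 1) on the vertical axis, with A30P left and WT right; numbers are replicates, and bars are the mean and SD of the plotted values. miR-124-3p is the arm whose groups stay apart (highest A30P 335, lowest WT 549), and WT replicates 1 and 8 are the lowest WT points in all 4 panels.

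miR-124-3p, the main functional arm of miR-124, had 0, 102 and 335 normalized counts in A30P libraries (lowest, median, highest), against 549, 1511 and 2274 in WT libraries. Every A30P library lay below every WT library, which held for 1 of the 4 arms on this scale and for 23.7% of all listed miRNAs. The mean was 119 ± 111 normalized counts in A30P (SD, n = 7) and 1405 ± 654 in WT (SD, n = 8). The log2 fold change by limma was -4.47 (SE 0.92, adjusted p = 0.000283). By edgeR with TMM scaling it was -2.13 (adjusted p = 0.00105). With the 3 A30P libraries over 100000 reads alone it was -3.05 by limma (adjusted p = 0.000927). The authors' deposited table gave -1.51 (adjusted p = 0.00557).

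Replicate 4 was the A30P library with no miR-124-3p read. A count of 0 there allows up to 169 normalized counts, or 0.0138% of listed reads (3 reads), which is below every WT library. At the median WT share of 0.205%, that library would have held 44.6 reads. Replicates 1, 2 and 7 held 7, 2 and 2 reads, where the same share would have given 133, 190 and 56.1. Replicate 6 held 1922 reads, where that share would have given 7179. The reads of miR-124-3p thus lay under the WT share at every depth sampled in A30P. Limits and intervals for single libraries hold the counting error of reads alone and no variation between libraries. No molecular identifiers were used, so reads and molecules are not told apart.

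As a share of listed reads, miR-124-3p took 0, 0.00760% and 0.0549% in A30P libraries (lowest, median, highest), against 0.103%, 0.205% and 0.274% in WT libraries. The groups did not overlap, which held for 2 of the 4 arms on this scale as listed, against 30.8% of all listed miRNAs. The other arm is miR-124-5p, where this depth cannot show it: the counts of 0 in A30P replicates 1, 2, 4 and 7 allow 0.00461%, 0.00323%, 0.0138% and 0.0110%, all above the lowest WT share of 0.00255%. The share is free of the size factors but not of what else fills the library. Its mean log2 difference was -4.37 (exact permutation test, two-sided, p = 0.000311, the smallest that 6435 splits can give). When miR-148a-3p and miR-151-3p were taken out of the total, the difference was -2.83 (exact permutation test, p = 0.000311). In replicate 6 the share was 0.0549% (Wilson 95% interval 0.0525% to 0.0574%). The shallower WT replicates 1 and 8 stood at 0.103% (0.0961% to 0.111%) and 0.132% (0.126% to 0.138%).

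miR-124-5p, the less abundant arm of the same hairpins, was near the detection limit in A30P. It had no reads in replicates 1, 2, 4 and 7, and 4.26, 12.0 and 20.6 normalized counts in replicates 3, 6 and 8. WT libraries held 12.9, 30.2 and 48.2 normalized counts (lowest, median, highest). A30P replicate 8 lay above WT replicates 1 and 8, at 17.7 and 12.9, so the groups overlapped. At the median WT share, replicates 4 and 7 would have held 0.987 and 1.24 reads and replicate 1 would have held 2.95, so a fall was not detectable in those libraries. Replicate 2 would have held 4.22, just over the limit of 3 reads that a count of 0 allows. Replicates 3, 6 and 8 held 2, 69 and 8 reads, where that share would have given 16.1, 159 and 20.0. The log2 fold change by limma was -3.38 (SE 0.74, adjusted p = 0.000478). On this scale a count of 0 allows 52.6, 60.3, 169 and 154 normalized counts in replicates 1, 2, 4 and 7. All exceed the highest WT value of 48.2, so the place of those libraries below WT was set by depth. No fall in those libraries is drawn from this call. The pseudocount set the size of the fold change: it was -5.29 with 0.1 added and -1.51 with 10 added (adjusted p = 0.00122 and 0.000407). It was -0.36 by edgeR with TMM scaling (adjusted p = 0.570) and -1.37 by limma without the 4 shallow A30P libraries (adjusted p = 0.0611). The authors' deposited table had -0.57 (adjusted p = 0.458).

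miR-9-5p had the most reads of the 4 arms and was the highest of all listed miRNAs by median share in WT. Its normalized counts were 2483, 8649 and 39363 in A30P libraries (lowest, median, highest), against 9579, 60205 and 118682 in WT libraries. The groups overlapped. A30P replicates 3, 6 and 8, at 12926, 39363 and 11211, lay above WT replicate 8, and replicate 6 also lay above WT replicate 1 at 16648. The log2 fold change by limma was -2.40 (SE 0.56, adjusted p = 0.000793), which is near the median of all miRNAs, -2.57. By edgeR with TMM scaling it was -0.95 and did not pass (adjusted p = 0.0942). It did not pass either by limma without the 4 shallow A30P libraries (log2 fold change -1.40, adjusted p = 0.0962). Without WT replicates 1 and 8, edgeR gave -1.16 (adjusted p = 0.0357). In the authors' deposited table it was positive, at 0.48 (adjusted p = 0.465).

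miR-9-5p took 0.202%, 0.758% and 6.46% of listed reads in A30P libraries (lowest, median, highest), against 2.30%, 8.28% and 13.8% in WT libraries. By median share it ranked 17 of the 396 in A30P and 1 in WT. Its mean log2 difference in share was -3.08 (exact permutation test, two-sided, p = 0.00124), and -1.54 with miR-148a-3p and miR-151-3p taken out of the total (p = 0.0121, exact permutation test). All 7 A30P libraries held reads of it, from 44 in replicate 4 to 226061 in replicate 6.

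miR-9-3p varied most of the 4 arms among WT libraries (CV of normalized counts 85.8%). It had 0, 98.0 and 440 normalized counts in A30P libraries (lowest, median, highest), against 114, 3660 and 9294 in WT libraries. WT replicates 8 and 1, at 114 and 285, stood far below the other WT libraries, which held 1275 to 9294. A30P replicates 2, 6 and 8, at 221, 440 and 255, lay above WT replicate 8. Replicates 4 and 7 held no read of it, where the median WT share would have given 104 and 131 reads and the lowest WT share 5.96 and 7.51. The log2 fold change by limma was -5.60 (SE 1.35, adjusted p = 0.00104), and -3.07 without the 4 shallow A30P libraries (adjusted p = 0.0370). By edgeR with TMM scaling it was -2.85 (adjusted p = 0.000996). The authors' deposited table had -0.69 (adjusted p = 0.515). Its share of listed reads was 0, 0.0119% and 0.0722% in A30P (lowest, median, highest), against 0.0274%, 0.480% and 1.12% in WT, a mean log2 difference of -4.89 (exact permutation test, two-sided, p = 0.00124). With miR-148a-3p and miR-151-3p taken out of the total the difference was -3.35 (exact permutation test, p = 0.00466).

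**Figure D2:**
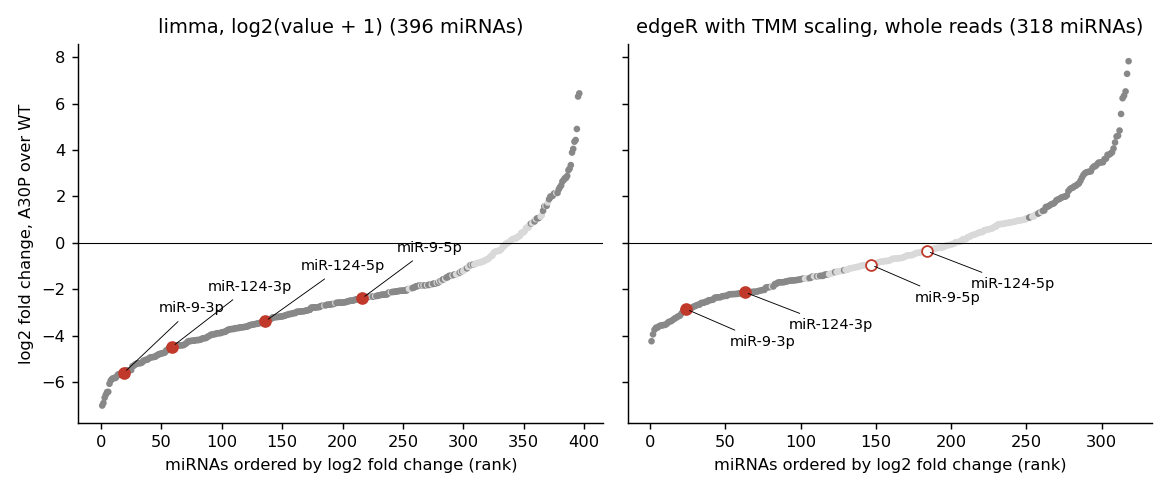
Log2 fold changes, A30P over WT, of all miRNAs in rank order, by limma on normalized counts (left) and by edgeR with TMM scaling on whole reads (right); dark grey and filled red points passed adjusted p 0.05, and red marks the 4 arms. By limma miR-9-3p (-5.60) ranks 19 from the lowest and miR-9-5p (-2.40) ranks 216, and by edgeR miR-9-5p and miR-124-5p are open.

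The arms fell by different amounts, which can be compared within a library, where size factors cancel. A ratio between miRNAs also holds their unequal capture in library preparation, so it is read here between libraries and not as a ratio of molecules. The 6 A30P libraries with miR-124-3p reads held 48.0 to 225 miR-9-5p reads per miR-124-3p read (median 94.0), against 17.5 to 61.4 in WT libraries (median 40.3). In 5 of these 6 the ratio was above every WT library, replicate 7 being the exception. The ratios of replicates 1, 2 and 7 rest on 7, 2 and 2 reads of miR-124-3p. Replicates 1 and 8, at 70.4 and 65.0, lay close to the highest WT ratio. Replicate 4 held 44 reads of miR-9-5p and none of miR-124-3p, so its ratio is not measured and its place below is set by the offset. With 0.5 added to each read count, the mean log2 ratio was 6.53 in A30P and 5.24 in WT, a difference of 1.29 (exact permutation test, two-sided, p = 0.00435, adjusted p = 0.00508 over 7 share and ratio tests). In the 3 A30P libraries over 100000 reads the difference was 1.66, with p = 0.0121, the smallest that an exact permutation test of 3 against 8 can give. With 1 added to each read count it was 1.06 (exact permutation test, p = 0.0214). Without WT replicates 1 and 8 it was 1.03 (exact permutation test, p = 0.0163). miR-124-3p was thus lower relative to miR-9-5p in A30P, whichever scaling is used.

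**Figure D3:**
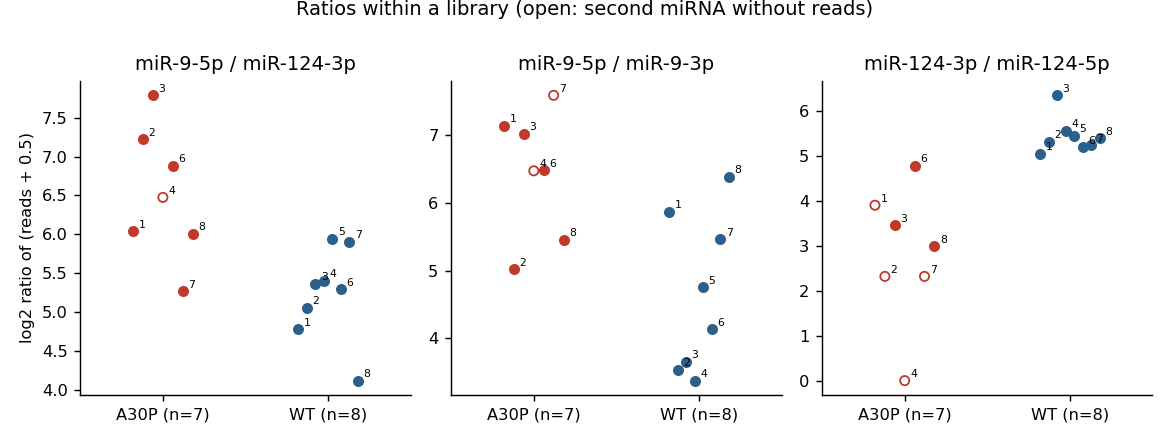
Log2 ratios of (reads + 0.5) within each library, A30P left and WT right, with replicate numbers; open points are libraries where the second miRNA had no reads, so their height is set by the offset. For miR-9-5p over miR-124-3p, 5 of the 6 filled A30P points lie above all WT points.

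The balance of the miR-9 arms also differed. A30P libraries with miR-9-3p reads held 33.9 to 164 reads of the 5p arm per read of the 3p arm (median 89.5, 5 libraries), against 10.4 to 83.9 in WT libraries (median 22.3). The ranges overlapped, since WT replicates 1 and 8 stood at 58.5 and 83.9 and the other WT libraries at 10.4 to 44.2. The mean log2 ratio differed by 1.81 (exact permutation test, two-sided, p = 0.00839, adjusted p = 0.00839). It includes A30P replicates 4 and 7, which held no miR-9-3p read and whose ratios are set by the offset. The highest measured ratio, 164 in replicate 1, rests on 3 reads of the 3p arm. Without the 4 shallow A30P libraries the difference was 1.68 and no longer passed (exact permutation test, p = 0.0606).

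For miR-124 the 3p arm was the major one in both genotypes. A30P replicates 3, 6 and 8 held 13.5, 27.9 and 8.38 reads of miR-124-3p per read of miR-124-5p, against 34.0 to 82.2 in WT libraries (median 41.4). All 3 lay below every WT library, with a mean log2 difference of -1.70 (exact permutation test, p = 0.0121, the smallest possible). Replicate 3 held 27 reads of miR-124-3p, so with any 5p read its ratio had to lie below the lowest WT ratio of 34.0. The place of that library was thus set by its depth. Replicates 3 and 8 rest on 2 and 8 reads of the 5p arm. Over all 7 A30P libraries the difference was -2.62 (exact permutation test, p = 0.000311), but 4 of them had no 5p read and their ratio is set by the offset of 0.5. These held at most 7 reads of the 3p arm, so their log2 ratio could not exceed 3.91, against a lowest WT value of 5.06. Their place below WT was fixed by depth, so nothing about arm balance is drawn from the test over 7 libraries.

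The miR-9-5p share moved with depth within A30P. Within WT it did so by Pearson's r but did not pass by Spearman's rho. Across the 7 A30P libraries the log2 share of miR-9-5p rose with log10 depth (Pearson's r = 0.953, permutation p = 0.00357, adjusted p = 0.0179 over 5 relations; Spearman's rho = 0.929, permutation p = 0.00675, adjusted p = 0.0337). Without replicates 6 and 8, the libraries farthest from the median depth, r was 0.908. Across the 8 WT libraries r was 0.936 for miR-9-5p (permutation p = 0.0132, adjusted p = 0.0220) and 0.881 for miR-124-3p (permutation p = 0.00774, adjusted p = 0.0193). Spearman's rho was 0.667 and 0.690 (permutation p = 0.0831 and 0.0694, adjusted p = 0.104 for each). Without WT replicates 1 and 8, r was 0.662 for miR-9-5p and 0.394 for miR-124-3p, so the relation of miR-124-3p in WT rests on those libraries. For miR-9-3p in WT r was 0.873 (permutation p = 0.0363, adjusted p = 0.0454) and rho 0.5 (permutation p = 0.216, adjusted p = 0.216), and r was 0.186 without them. For miR-124-5p in WT the relation did not pass (r = 0.668, permutation p = 0.103, adjusted p = 0.103; rho = 0.690, permutation p = 0.0694, adjusted p = 0.104), and r was 0.608 without them. The median rho over all listed miRNAs in WT was 0.405, and 21.0% had a rho at least that of miR-9-5p. For A30P no such share was computed, and miR-9-5p was the only arm examined there. Replicate 6, the deepest A30P library, was the highest A30P library by share for 67.4% of all listed miRNAs. The relation in A30P therefore cannot be read as particular to miR-9-5p. The share of miR-9-5p in A30P replicate 6, 6.46%, lay above WT replicates 1 and 8 (2.85% and 2.30%) and below the other WT libraries. That of miR-124-3p in the same library lay below all 8. The part of depth in the difference between genotypes was not tested.

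**Figure D4:**
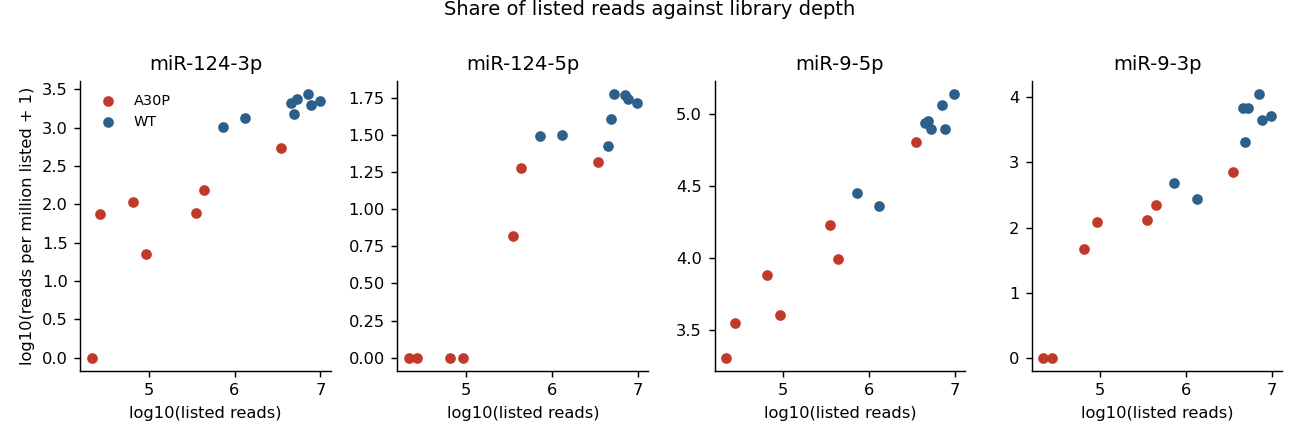
Share of listed reads of each arm, on the log10 scale marked on the axis, against log10 of listed reads per library, with A30P in red and WT in blue. The miR-9-5p points climb with depth in A30P and less evenly in WT, while A30P replicate 6, at 3500431 reads, lies below all WT points for miR-124-3p.

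WT replicates 1 and 8 were the lowest pair of the 8 WT libraries for all 4 arms on the scale of normalized counts, a pattern seen in 51.3% of all listed miRNAs. Both miR-9 arms are poor in G and C. GC content was 31.8% in miR-9-3p and 34.8% in miR-9-5p, against a median of 47.8% over the 347 listed miRNAs with a RefSeq sequence, of which 25 (7.20%) were at or below miR-9-5p. Across the 243 miRNAs with a sequence and at least 10 reads in every WT library, GC content went with a higher level in WT replicates 8 and 1 relative to the median of the other WT libraries (Spearman's rho 0.696 and 0.619). In WT replicates 2, 3, 4 and 5 the rho was -0.372, -0.396, -0.469 and -0.527, and in replicates 6 and 7 it was 0.193 and 0.300. Across the 81 miRNAs with a sequence and reads in all 15 libraries it was -0.0319 to 0.189 in A30P libraries. These coefficients describe miRNAs that share libraries and are not tests, and the part of base composition in the genotype difference was not tested.

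**Figure D5:**
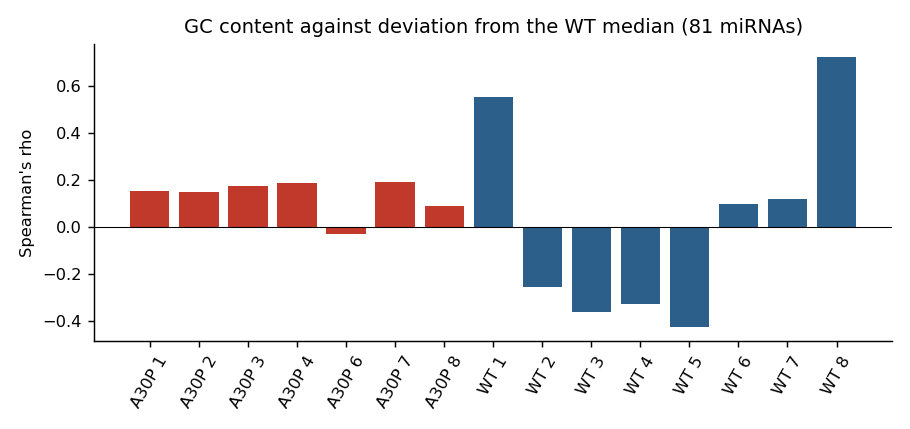
Spearman's rho, across 81 miRNAs with reads in all 15 libraries, between GC content and the log2 deviation of a library from the median of the WT libraries (for a WT library, of the other WT libraries); A30P bars are red and WT bars blue. WT replicates 1 and 8 have the tallest bars, at 0.551 and 0.721, and A30P bars lie between -0.0319 and 0.189.

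The miRNAs that followed each arm most closely were found among WT libraries, as those with the smallest SD of the log2 ratio to it over 8 libraries, among 277 others with at least 10 reads in each. For miR-9-3p they were miR-29b-3p (SD 0.25), miR-384-5p (0.32) and miR-135a-5p (0.34), against a median SD of 1.95. Their sequences are shown with the seed in capitals because they share low GC content with miR-9-3p (34.8%, 34.8% and 30.4%) but not its seed.
miR-29b-3p: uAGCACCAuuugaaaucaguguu
miR-384-5p: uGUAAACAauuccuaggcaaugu
miR-135a-5p: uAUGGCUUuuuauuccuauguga
The opposite arm, miR-9-5p, came only at rank 48 (SD 1.16). The miRNAs named here and below as closest all had their lowest WT levels in replicates 1 and 8, a pattern of 51.3% of all listed miRNAs. miR-29b-3p, for example, held 16.9 and 9.72 normalized counts there, against 81.4 to 572 in the other WT libraries. Likeness was not tested without these libraries. In A30P, miR-384-5p and miR-135a-5p fell by both limma (log2 fold change -5.26 and -5.63, adjusted p = 0.000168 and 0.000472) and edgeR with TMM scaling (-2.87 and -2.66, adjusted p = 0.00104 and 0.00258). miR-29b-3p fell by limma (-2.57, adjusted p = 0.0329) but did not pass in edgeR (-1.09, adjusted p = 0.139).

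For miR-9-5p the closest were miR-146b-5p (SD 0.20), miR-380-5p (0.23) and miR-185-5p (0.27), against a median of 1.09. GC content was 40.9% in miR-146b-5p and 45.5% in miR-380-5p, and none was computed for miR-185-5p. The differences of these miRNAs between genotypes were unlike. miR-185-5p fell, with a log2 fold change of -4.41 by limma (adjusted p = 0.000452) and -2.21 by edgeR (adjusted p = 0.00112). miR-380-5p missed the threshold by limma (-1.24, adjusted p = 0.347) and was higher by edgeR (1.87, adjusted p = 0.00563). miR-146b-5p fell by limma (-3.22, adjusted p = 0.00514) but not by edgeR (-1.13, adjusted p = 0.0717).

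For miR-124-3p the closest were miR-325-3p and miR-125b-2-3p (SD 0.19 each) and miR-1983 (0.20), against a median of 0.76, and miR-124-5p stood at rank 36 (0.40). For miR-124-5p they were miR-181a-5p and miR-125b-2-3p (0.27 each) and miR-151-5p (0.28). miR-181a-5p was the abundant one of these, at 540 ± 624 normalized counts in A30P (SD, n = 7) and 6686 ± 2125 in WT (SD, n = 8). Of the others, miR-325-3p had reads in 1 of 7 A30P libraries, miR-151-5p in 2, and miR-125b-2-3p and miR-1983 in 3 each. miR-181a-5p fell by limma (log2 fold change -4.11, adjusted p = 5.96e-07) and by edgeR (-2.44, adjusted p = 0.000221). GC content was 36.4% in miR-325-3p, 47.6% in miR-1983, 47.8% in miR-181a-5p and 50% in miR-125b-2-3p. None was computed for miR-151-5p. Low GC content was thus not shared by the closest miRNAs of every arm.

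Among 24 other arms of neuron-enriched miRNAs (miR-7, miR-128, miR-129, miR-132, miR-135a, miR-137, miR-138, miR-153, miR-212, miR-218, miR-383 and miR-488), 1 rose, 15 fell and 8 did not pass by limma. Over all 396 miRNAs 33 rose, 281 fell and 82 did not pass. The median log2 fold change was -2.56 in that list, against -2.57 over all. By edgeR with TMM scaling 3 of 20 tested arms rose and 5 fell, with a median of -0.60, against -0.75 over all 318 tested. Falls were thus no more frequent in the list than over all miRNAs (71% by limma and 35.5% by edgeR).

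The 4 neuron-enriched arms with the highest WT means went different ways. miR-128-3p, which restrains neuronal excitability, averaged 5405 ± 2575 normalized counts in A30P (SD, n = 7) and 45404 ± 11625 in WT (SD, n = 8), and it fell by limma (log2 fold change -3.14, adjusted p = 3.65e-08) and edgeR (-2.08, adjusted p = 0.000290). miR-129-5p, linked to synaptic scaling, averaged 8859 ± 1874 in A30P and 4749 ± 3030 in WT. It rose by limma (1.06, adjusted p = 0.00610) and edgeR (1.64, adjusted p = 0.00841). WT replicate 8, at 11610, lay above every A30P library (highest 10684), WT replicate 1 stood at 6462, and the other WT libraries held 2697 to 4249. miR-7a-5p, which represses alpha-synuclein, averaged 14324 ± 10143 in A30P and 12372 ± 11738 in WT. Its log2 fold change was 0.92 by limma and missed the threshold (adjusted p = 0.259), while it rose by edgeR with TMM scaling (1.69, adjusted p = 0.00763). WT replicates 1 and 8 held 555 and 958 normalized counts of miR-7a-5p, against 4769 to 31606 in the other WT libraries. miR-7b-5p, its close paralog, did not pass by either (limma -0.34, adjusted p = 0.668; edgeR 0.70, adjusted p = 0.268).

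Arms of other cell types are given beside the shares of all miRNAs called, 71% lower and 8.33% higher by limma and 35.5% lower and 19.5% higher by edgeR. By limma, 0 of 4 oligodendrocyte arms (miR-219, miR-338) rose and 2 fell, and both microglia and leukocyte arms (miR-146a-5p, miR-150-5p) fell. Of 4 vessel arms (miR-126a, miR-143, miR-145a) 1 rose and 3 fell, of 4 erythroid arms (miR-144, miR-451a, miR-486) 1 rose and 2 fell, and of 5 choroid plexus and ciliated epithelium arms (miR-204, miR-34b, miR-34c) 0 rose and 3 fell. By edgeR with TMM scaling the counts higher and lower were 0 and 2, 0 and 2, 1 and 0, 1 and 0 (of 3 tested), and 0 and 1, in the same order of lists. No list had a member at 0 in every library of a genotype.

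The summed shares of listed reads of these lists follow. Like the other shares, they depend on what else fills the library, with miR-148a-3p and miR-151-3p at 13.9% to 80.1% of reads in A30P libraries. The oligodendrocyte list summed to 0.106% to 0.925% in A30P libraries and 0.679% to 1.33% in WT libraries. The microglia and leukocyte list summed to 0 to 0.0573% in A30P and 0.0853% to 0.167% in WT. The vessel list summed to 0.377% to 1.89% in A30P and 0.704% to 2.47% in WT. The erythroid list summed to 0.0320% to 0.176% in A30P and 0.0382% to 0.381% in WT, and the choroid plexus and ciliated list to 0.0110% to 0.185% in A30P and 0.193% to 0.639% in WT. miR-219a-2-3p, the highest oligodendrocyte arm, averaged 3177 ± 1573 normalized counts in A30P (SD, n = 7) and 4932 ± 1530 in WT (SD, n = 8). Its log2 fold change was -0.73 by limma (adjusted p = 0.0593) and 0.47 by edgeR with TMM scaling (adjusted p = 0.353). In the other lists the highest arms were miR-150-5p (38.7 ± 70.6 in A30P and 496 ± 130 in WT), miR-126a-3p (1201 ± 873 in A30P and 6279 ± 3104 in WT), the combined miR-486b-5p and miR-486a-5p (432 ± 209 in A30P and 634 ± 480 in WT) and miR-204-5p (274 ± 247 in A30P and 1545 ± 761 in WT), as mean ± SD of normalized counts (n = 7 and 8). By limma their log2 fold changes were -5.84, -2.42, -0.40 and -2.95, with adjusted p = 7.57e-05, 0.000436, 0.471 and 0.000124. By edgeR with TMM scaling they were -2.17, -0.995, 0.053 and -1.16, with adjusted p = 0.00312, 0.0749, 0.943 and 0.0521, so miR-150-5p alone of these 4 passed in both tests. The part of cell type makeup in the differences of miR-124 and miR-9 was not tested.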

How the data were processed

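Midbrain small RNA libraries of 7 A30P and 8 WT samples were compared. The authors deposited a single table. Its signal values per library are read counts divided by a size factor, and per the file headers it also holds log2 fold changes, p-values and group means. Those means have the unit score here because the authors deposited them with no stated scale, and they were not used. Columns named CT were read as WT and matched by number. Build mm9 and DESeq are named per the submitters' processing notes, while no aligner or miRNA annotation is named there. The labels' protocols name a TruSeq kit, while the columns begin with NEB.

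In each library all values were whole multiples of a single step (within 1e-05, 100% of values), which gave whole reads. No file gave library totals, so depth means reads of listed miRNAs. limma (3.58.1, trend and robust) was fitted on log2(value + 1) over all 396 miRNAs, since each had a mean of 1 or more in A30P or WT. On that scale the pseudocount sets the size of a change where libraries hold counts of 0. On whole reads the alternatives were limma-voom, edgeR (4.0.16) and DESeq2 (1.42.0), in R 4.3.3. Shares and ratios were compared by exact permutation (scipy 1.17.1, Python 3.11.15). The fits were tested on simulated counts. Members and lists were chosen with earlier results of these data known. Results on miR-9-3p, which the name rule adds, and 2 edgeR fits on fewer libraries were added after the data were seen. Beside the members, the text names the 3 closest miRNAs per arm, the 4 highest neuron-enriched arms and the highest arm of each other list.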

Additional observations from a re-analysis of the deposited data

Results flagged for a closer look

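A30P replicate 6, the deepest A30P library, stood apart from the other 6 A30P libraries in 4 of 22 sets of values, counted per genotype. Its miR-9-5p level was 39363 normalized counts, and its shares of listed reads were 6.46% for miR-9-5p, 0.0549% for miR-124-3p and 0.0722% for miR-9-3p. It was the highest A30P library by share for 67.4% of all listed miRNAs. WT replicate 3 stood apart in the log2 ratio of miR-124-3p to miR-124-5p, at 6.35. Gaps were measured on normalized counts and percent shares without logs, and on log2 ratios. Levels and shares were not checked for gaps on the log2 scale used in the tests. The threshold for such a gap is Dixon's at the 95% level, which chance passes in about 1 in 20 groups of normally distributed values. Of the 5 values, 4 come from a single library.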

How the results depend on the processing

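The falls of miR-124-3p and miR-9-3p kept their direction in all alternatives tried, and their side of the threshold in all but the authors' deposited table, where miR-9-3p had a log2 fold change of -0.69. miR-124-5p missed the threshold by edgeR (-0.36, and -0.34 without the 4 A30P libraries under 100000 reads, -0.29 without WT libraries 1 and 8), in limma without those A30P libraries (-1.37), or in the authors' table (-0.57). It turned to 0.022 in limma-voom, and its share difference was -0.21 when miR-148a-3p and miR-151-3p left the total. miR-9-5p did not pass in edgeR (-0.95, and -0.44 without the shallow A30P libraries), limma-voom (-1.06) or limma without them (-1.40), and was 0.48 in the authors' table. The ratio of the miR-9 arms did not pass without them (1.68). The cause of these changes was not tested. Of all miRNAs 314 were called by limma, 175 by edgeR, 165 by limma-voom, 174 in the authors' table and 142 by edgeR without the shallow libraries. Higher calls were 10.5% of calls by limma, 35.4% by edgeR and 46.7% by limma-voom. Over all miRNAs, the median log2 fold change shifted by 0.74 under TMM scaling and by -0.35 under scaling to listed reads, and all 4 arms still passed by limma under both. Leaving out any single library kept the calls of the 4 arms, with 299 to 325 miRNAs called and log2 fold changes of -4.90 to -3.50 (miR-124-3p), -3.87 to -3.13 (miR-124-5p), -6.18 to -4.72 (miR-9-3p) and -2.75 to -2.09 (miR-9-5p). Same-numbered A30P and WT libraries did not deviate together (correlation over 0.1 in 2 of 7 pairs). With replicate number as a block the log2 fold changes were -4.38 (miR-124-3p), -3.29 (miR-124-5p), -5.42 (miR-9-3p) and -2.21 (miR-9-5p), and 296 miRNAs were called. No call on the arms changed. Pseudocounts of 0.1 and 10 kept the calls of the 4 arms, with log2 fold changes of -4.96 and -3.89 (miR-124-3p) and -6.55 and -4.60 (miR-9-3p). For miR-124-5p the calls kept by limma across scalings, single libraries, blocks and pseudocounts add no support. They all retain counts of 0 that were set by depth.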
